A study of Mus musculus with 2 samples.

Results

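The genes of the spindle assembly checkpoint were followed in single cells of the embryonic mouse heart, with 8 members: Bub1b, Bub1, Bub3, Knl1, Ttk, Mad1l1, Mad2l1 and Cdc20. They were taken by symbol from the 32285 genes of the matrices. All 8 were detected in both libraries. The hearts came from embryos at stage E10.5, and 4 hearts were pooled for each of 2 libraries. The 10x Genomics 3' assay (v3.1) was used, which counts unique molecular identifiers (UMIs), each standing for 1 captured RNA molecule, near the 3' end of transcripts. One library was made from BubR1+/+ hearts and is called the wildtype library after its label. The other was made from BubR1fl/fl hearts and is called the knockout library after its label. BubR1 is the protein that Bub1b encodes. Embryos of both genotypes were heterozygous for Nkx2.5-cre. The Cre recombinase it encodes is active in cardiac progenitors, so cardiomyocytes and part of the endocardium, epicardium and mesenchyme descend from cells that had it, while blood cells are not taken to. The design asks what changes in heart cells when this checkpoint protein is deleted there.

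The spindle assembly checkpoint holds a dividing cell before anaphase until each chromosome is attached to the spindle. At an unattached kinetochore the kinase Mps1 (encoded by Ttk) phosphorylates the scaffold Knl1, which recruits Bub3 with Bub1 or BubR1, and Mad1 (Mad1l1) brings Mad2 (Mad2l1) there. Mad2, BubR1 and Bub3 then bind Cdc20, the coactivator of the anaphase-promoting complex (APC/C), and this mitotic checkpoint complex keeps APC/C from marking cyclin B and securin for destruction. Most of these genes are known to be transcribed mainly in G2 and mitosis.

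Cells were barcodes with at least 3000 UMIs, at least 500 genes and at most 20% mitochondrial UMIs, which left 7440 cells labelled wildtype and 5966 labelled knockout. They were assigned to classes by counting markers of each class, and cells with markers of 2 or more classes (532 and 260) or of no class (1035 and 889) were left out. The 5 classes with at least 50 cells in both libraries were cardiomyocytes (591 labelled wildtype and 602 labelled knockout), endothelial/endocardial cells (1297 and 775), cushion/outflow mesenchymal cells (1027 and 330), epicardial cells (788 and 1755) and erythroid cells (1898 and 1148). In each of them and in each library, between 3 and 7 of the 10 genes that stood highest above the other classes were markers of that class, and 0 were markers of another. The cells had been picked by these same markers, so this does not check the classes. With 1 library per genotype no test was possible and no p-value is given. Square brackets hold 95% intervals of counting error only, and "higher" or "lower" is used of ratios whose interval leaves out 0. Levels are in CPM, the UMIs of a gene among 1000000 UMIs of the class. Differences are given as log2 ratios, knockout library over wildtype library. Levels are not compared between genes, because a 3' UMI count is not a level per transcript length.

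The libraries differed in more than genotype. Median UMIs per cell were 9504.5 in the wildtype library and 17042.5 in the knockout library, so shares of cells were compared after every cell was thinned to 6000 UMIs. The labels give the same stage to both, yet Hmga2, a chromatin protein of early embryonic tissue, stood at 39.7 and 176 CPM in cardiomyocytes and at 167 and 704 CPM in epicardial cells. Eln, which encodes elastin, stood at 329 and 12.7 CPM in mesenchymal cells and Tnxb, a matrix protein of connective tissue, at 48.6 and 1.12 CPM. Both also stood below the wildtype library in every other class, Eln at 126 and 3.22 CPM in epicardial and 174 and 6.88 CPM in endothelial/endocardial cells. The mesenchymal class and the others are thus not taken to hold like cells in both libraries. Hemoglobin genes took 77.5% of erythroid UMIs in the wildtype library and 46.2% in the knockout library. The part of these differences in the results that follow was not tested. The libraries shared 8 cell barcodes, 0.108% of the cells labelled wildtype and 0.134% of those labelled knockout.

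By GENCODE vM21 on build mm10, 3 members lie on chromosome 2: Bub1b (ENSMUSG00000040084, 118598211 to 118641591, plus strand), Knl1 (ENSMUSG00000027326, 119047119 to 119105501, plus strand) and Bub1 (ENSMUSG00000027379, 127801122 to 127831865, minus strand). Bub3 (ENSMUSG00000066979) lies on chromosome 7 from 131560222 to 131571895, Ttk (ENSMUSG00000038379) on chromosome 9 from 83834689 to 83872389 and Mad2l1 (ENSMUSG00000029910) on chromosome 6 from 66535390 to 66547220, all on the plus strand. Mad1l1 (ENSMUSG00000029554) spans 140008689 to 140321552 of chromosome 5 and Cdc20 (ENSMUSG00000006398) 118432901 to 118437352 of chromosome 4, both on the minus strand. Bub3 overlaps Fgfr2, Cdc20 overlaps Elovl1, and Mad1l1 overlaps the antisense genes Gm16120, Gm16121 and Gm16122, each on the opposite strand. Mad1l1 also overlaps Gm43702 and Gm43195 on its own strand, which the matrices do not list. The sources used here do not say whether counting used the strand, so the counts of these 3 members are less certain.

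Promoters of some members are shown. Whether their motifs go with the share of UMIs in cells rich in G2/M RNA was not tested. The letters are the 100 bases before the RefSeq start on GRCm38.p6, 5' to 3' on the gene's strand, and capitals mark CCAAT or TTTGAA on either strand. CCAAT is the core of the site bound by NF-Y, and TTTGAA and TTCGAA are the forms of the cell cycle genes homology region (CHR), an element known from promoters of G2/M genes.
Cdc20, chr4:118437344-118437443, minus strand: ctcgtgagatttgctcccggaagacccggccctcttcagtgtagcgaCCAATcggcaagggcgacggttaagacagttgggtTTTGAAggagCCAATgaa
Bub1, chr2:127831860-127831959, minus strand: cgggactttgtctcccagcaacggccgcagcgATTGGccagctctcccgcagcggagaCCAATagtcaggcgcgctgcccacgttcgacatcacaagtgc
Ttk, chr9:83834589-83834688, plus strand: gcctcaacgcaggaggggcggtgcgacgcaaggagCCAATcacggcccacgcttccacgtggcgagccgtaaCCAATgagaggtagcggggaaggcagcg
Bub1b, chr2:118598111-118598210, plus strand: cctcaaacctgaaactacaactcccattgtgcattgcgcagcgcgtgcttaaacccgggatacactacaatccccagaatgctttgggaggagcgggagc
Mad1l1, chr5:140321553-140321652, minus strand: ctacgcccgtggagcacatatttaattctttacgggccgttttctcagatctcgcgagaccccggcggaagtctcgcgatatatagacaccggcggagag
Cdc20 and Ttk each had 2 CCAAT in this stretch and Bub1 had 1 on each strand, while Bub1b and Mad1l1 had none. Of the members not printed, Bub3 had 2 CCAAT and 1 TTTGAA in this stretch before 1 of its RefSeq starts. Knl1 and Mad2l1 had neither. The 25% of wildtype cardiomyocytes richest in G2/M RNA, described below, held 47.3% of Bub3 UMIs and 74.8% of Knl1 UMIs. CCAAT in this stretch was thus not confined to members with high shares. Over the whole RefSeq window, which runs from 250 bases before to 50 after the start, the 8 members matched 10 windows. CCAAT was found for 5 members (Bub1b, Bub1, Bub3, Ttk and Cdc20) and in 37.4% of all 32851 windows. TTTGAA was found for 5 members (Bub1b, Bub3, Ttk, Cdc20 and Knl1) and in 17.9% of all windows, and TTCGAA for Bub1b and Bub1 and in 1.56%. These are matches of letters and were not tied to binding.

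In cardiomyocytes the member furthest from 0 was Bub1b itself, followed by Knl1, while the kinase gene Ttk and the Mad1l1 and Mad2l1 pair differed by less than counting error. Over 549 wildtype UMIs, Bub1b stood at 60.4 CPM [55.4, 65.7], and over 359 knockout UMIs it stood at 29.9 CPM [26.9, 33.2], which gave a ratio of -1.01 [-1.21, -0.82]. Knl1, the kinetochore scaffold, stood at 65.3 CPM (594 UMIs) and 43.0 CPM (516 UMIs), a ratio of -0.60 [-0.78, -0.43]. Both genes were lower under every scaling tried. Bub1, the kinase that sits on Knl1, was at 49.6 and 43.0 CPM, -0.21 [-0.39, -0.02], and Cdc20 was at 57.9 and 50.9 CPM, -0.19 [-0.36, -0.01]; per UMI of the G2/M list these ratios turned to 0.038 and 0.060, with intervals that held 0. Bub3, which carries Bub1 and BubR1 to Knl1, was higher, at 72.5 and 84.5 CPM, 0.22 [0.08, 0.36].

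For the other 3 members the cardiomyocyte intervals held 0. Ttk stood at 20.5 and 19.1 CPM (-0.10 [-0.38, 0.19]), Mad2l1 at 31.6 and 30.1 CPM (-0.07 [-0.30, 0.16]) and Mad1l1 at 22.1 and 24.1 CPM (0.12 [-0.14, 0.39]). Per UMI of the G2/M list Mad1l1 was higher (0.37 [0.11, 0.64]), and Ttk (0.15) and Mad2l1 (0.18) held 0 on the other side of it. Thus 4 members were lower, 1 was higher and 3 held 0, against 19.4% of all 13657 genes tested that were lower and 20.6% that were higher. The libraries stood at least 1.5-fold apart for 2 members (Bub1b and Knl1, both lower) and for 20.8% of all genes. The calls of Bub1 and Cdc20 were not stable: without mitochondrial, ribosomal protein and hemoglobin genes both held 0 (-0.18 [-0.36, 0.01] and -0.16 [-0.33, 0.01]), which left 2 members lower. Bub1 also held 0 at a mitochondrial limit of 10% (-0.10 [-0.32, 0.12]), and Cdc20 without Scrublet doublets (-0.18) and in thinned cells (-0.19). The median member was at -0.14 and the median of all genes at 0.02. The sources used here do not name the deleted exons of Bub1b, and 3' reads outside them would be counted from a deleted allele too, so the Bub1b value does not check the label.

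**Figure D1:**
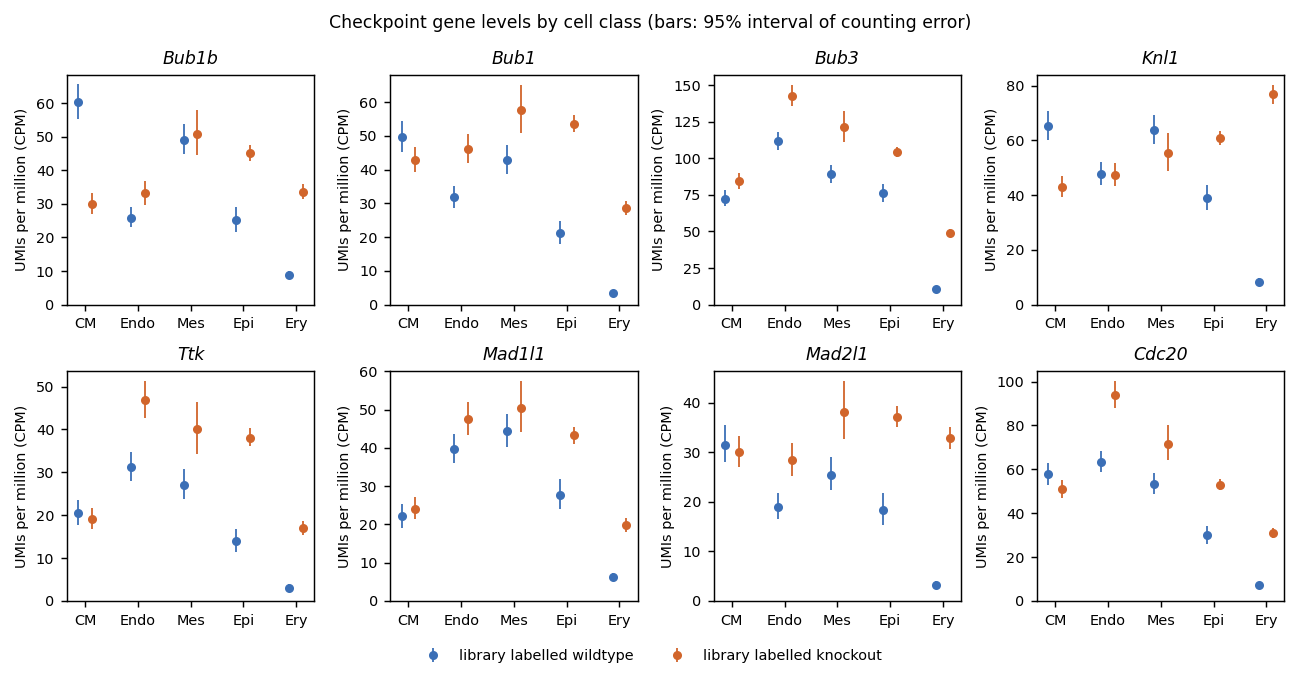
Level of each checkpoint gene in CPM (vertical axis, from 0) in cardiomyocytes (CM), endothelial/endocardial (Endo), mesenchymal (Mes), epicardial (Epi) and erythroid (Ery) cells; points are the 2 libraries and bars the exact Poisson 95% interval. Bub1b in cardiomyocytes lies at 60.4 CPM in the wildtype and 29.9 CPM in the knockout library, while in epicardial cells all 8 genes stand higher in the knockout library.

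Set against its partners in the same cardiomyocytes, the Bub1b ratio was below that of each of the 7 other members. The difference in log2 ratio was smallest to Knl1, at -0.41 [-0.67, -0.15], and largest to Bub3, at -1.23 [-1.48, -0.99]. To Bub1, the closest relative of BubR1, it was -0.80 [-1.08, -0.53]. The summed UMIs of the 7 other members had a ratio of -0.12 [-0.19, -0.05]. This ratio turned to 0.13 per UMI of the G2/M list and held 0 at a mitochondrial limit of 10% (-0.080 [-0.17, 0.005]). Bub1b lay 0.90 below that sum, a difference of -0.90 [-1.10, -0.69]. In endothelial/endocardial cells the same difference was -0.04 [-0.28, 0.20] and in epicardial cells 0.06 [-0.18, 0.30], so Bub1b there could not be told from the sum of its partners at this depth, though single partners in epicardial cells lay on both sides of it. In mesenchymal cells it was -0.28 [-0.53, -0.03] and in erythroid cells -0.64 [-0.89, -0.39].

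Splitting cardiomyocytes by chamber markers, a split chosen after the data were seen, gave a Bub1b interval below 0 in ventricular cells and one that held 0 in atrial cells. In the 441 and 430 ventricular cells Bub1b stood at 67.8 and 31.2 CPM, a ratio of -1.12 [-1.33, -0.91]. In the 138 and 116 atrial cells it stood at 33.6 CPM (62 UMIs) and 27.3 CPM (50 UMIs), -0.30 [-0.86, 0.27]. The 12 and 56 cells that could not be put in a chamber had 4 and 18 Bub1b UMIs (-0.67 [-2.27, 1.36]). Cdc20 was lower in ventricular cells (-0.33 [-0.52, -0.14]) and higher in atrial cells (0.54 [0.05, 1.05], 59 and 85 UMIs). Mad2l1 was higher in atrial cells (0.80 [0.16, 1.47], 33 and 57 UMIs) and held 0 in ventricular cells (-0.22 [-0.47, 0.03]). The differences between chambers were not tested.

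In the 4 other classes the checkpoint genes stood mostly higher in the knockout library when scaled to all UMIs. In endothelial/endocardial cells 7 members were higher and 0 lower, against 15.9% and 33.1% of 13826 genes; Knl1 held 0 at -0.01 [-0.20, 0.17]. Of the members, Ttk alone was at least 1.5-fold apart, as were 24.0% of all genes. Ttk was at 31.2 and 46.8 CPM (0.59), Mad2l1 at 19.1 and 28.4 CPM (0.58), Cdc20 at 63.3 and 94.0 CPM (0.57), Bub1 at 31.8 and 46.2 CPM (0.54), Bub1b at 25.9 and 33.1 CPM (0.35 [0.12, 0.59]), Bub3 at 112 and 143 CPM (0.35) and Mad1l1 at 39.7 and 47.6 CPM (0.26). Per UMI of the G2/M list, Bub3, Mad1l1 and Knl1 (-0.49 [-0.67, -0.31]) were lower in this class and the other 5 members held 0, Bub1b at -0.12 [-0.35, 0.11]. The G2/M list itself was at 4152 and 5771 CPM there.

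Mesenchymal cells had 5 members higher and 3 that held 0, against 19.0% of 13639 genes higher and 27.3% lower. Mad2l1 (25.5 and 38.2 CPM, 0.58), Ttk (27.1 and 40.0 CPM, 0.56), Bub3 (89.1 and 121 CPM, 0.45), Cdc20 (53.2 and 71.7 CPM, 0.43) and Bub1 (42.8 and 57.6 CPM, 0.43) were the higher ones, of which Bub1 and Cdc20 stood at -0.0084 and -0.0063 per UMI of the G2/M list. Bub1b, at 49.2 and 50.9 CPM (0.05 [-0.19, 0.28]), Mad1l1, at 44.4 and 50.5 CPM (0.18 [-0.06, 0.42]), and Knl1, at 63.8 and 55.4 CPM (-0.20 [-0.42, 0.01]), held 0. Per UMI of the G2/M list these 3 were lower, at -0.39 [-0.62, -0.15], -0.25 [-0.49, -0.015] and -0.64 [-0.86, -0.42], and the other 5 held 0. Knl1 was also lower at a minimum of 5000 UMIs (-0.28 [-0.50, -0.058]) and at a mitochondrial limit of 10% (-0.23). Relative to the median gene Mad1l1 was higher (0.28 [0.043, 0.52]). At least 1.5-fold apart were 0 members and 30.3% of all genes.

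All 8 members were higher in epicardial cells, where 24.3% of 15384 genes were higher and 31.0% lower, and 3 of them (Bub3, Mad1l1 and Knl1) turned lower per UMI of the G2/M list. On that scale Bub1b (-0.16 [-0.38, 0.071]), Cdc20 (-0.18 [-0.39, 0.028]) and Mad2l1 (0.013) held 0, and Ttk and Bub1 were higher. At least 1.5-fold apart were 7 members (all but Bub3) and 35.6% of all genes. Ttk had the largest ratio, from 13.9 to 38.1 CPM (1.46 [1.16, 1.76]), then Bub1, from 21.3 to 53.6 CPM (1.33 [1.09, 1.58]), and Mad2l1, from 18.4 to 37.2 CPM (1.02 [0.76, 1.28]). Bub1b went from 25.1 to 45.1 CPM (0.84 [0.62, 1.07]) and Bub3, the lowest, from 76.1 to 104 CPM (0.45 [0.32, 0.59]). In this class the G2/M list went from 3159 to 6330 CPM and the S phase list from 1791 to 3638 CPM.

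Erythroid cells also had all 8 members higher, in a class where 61.1% of 12932 genes were higher and 20.8% lower and the median gene stood at 0.96. All 8 were at least 1.5-fold apart, as were 80.6% of all genes. Knl1 went from 8.39 to 76.8 CPM (3.20), Mad2l1 from 3.28 to 32.9 CPM (3.32), Bub1 from 3.42 to 28.6 CPM (3.07) and Bub1b from 8.79 to 33.6 CPM (1.93 [1.71, 2.17]). Without mitochondrial, ribosomal protein and hemoglobin genes in the total, Bub1b stood at 1.00 and the sum of the other 7 at 1.64. Per UMI of the G2/M list, Bub1b, Bub3, Mad1l1 and Cdc20 turned lower in this class and Ttk held 0 (-0.040 [-0.41, 0.35]). The median gene was at -0.14 in endothelial/endocardial, -0.10 in mesenchymal and -0.06 in epicardial cells.

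**Figure D2:**
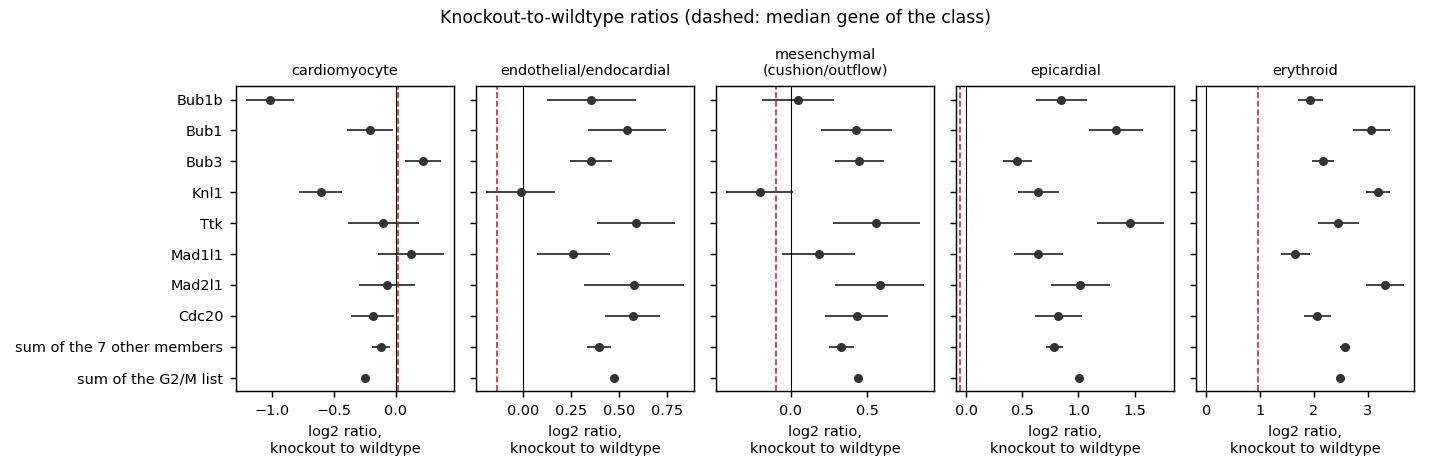
Log2 ratio of the knockout library to the wildtype library (horizontal axis, scale differs between panels) for the 8 genes, the sum of the 7 members other than Bub1b and the sum of the G2/M list; bars are exact 95% intervals of counting error, the solid line is 0 and the dashed line the median gene of the class. In cardiomyocytes Bub1b (-1.01) and Knl1 (-0.60) lie left of the others, while in the other 4 classes most genes lie right of 0 on this scale; several lie below 0 per UMI of the G2/M list.

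The order of the classes by level changed between libraries. In the wildtype library Bub1b was at 60.4 CPM in cardiomyocytes and 49.2 CPM in mesenchymal cells, whose intervals did not overlap, then at 25.9 CPM in endothelial/endocardial and 25.1 CPM in epicardial cells, which could not be told apart, and at 8.79 CPM in erythroid cells. In the knockout library it was at 50.9 CPM in mesenchymal and 45.1 CPM in epicardial cells, whose intervals overlapped, and then at 33.6, 33.1 and 29.9 CPM in erythroid, endothelial/endocardial and cardiomyocyte cells, which overlapped as well. Cardiomyocytes thus went from the first to the last place of the 5 for Bub1b. For Bub1 they were also first in the wildtype library (49.6 CPM, overlapping with mesenchymal cells at 42.8 CPM) and below 3 classes in the knockout library (43.0 CPM). The order changed alike for Knl1, from 65.3 CPM in cardiomyocytes and 63.8 CPM in mesenchymal cells at the top, which overlapped, to 43.0 CPM at the bottom, overlapping with 47.3 CPM in endothelial/endocardial cells. Mad2l1 was highest in cardiomyocytes of the wildtype library (31.6 CPM, overlapping with mesenchymal cells at 25.5 CPM) and in mesenchymal cells of the knockout library (38.2 CPM, overlapping with epicardial cells at 37.2 CPM). Bub3, Ttk and Cdc20 had their highest level in endothelial/endocardial cells of both libraries, for Bub3 at 112 and 143 CPM, with an interval that left out the next class only for Bub3 and, in the knockout library, for Cdc20. Mad1l1 was highest in mesenchymal cells of both libraries, overlapping with endothelial/endocardial cells. Macrophages, a blood lineage with only 39 cells in the knockout library, were below the cell minimum for a ratio. They held Bub1b at 90.1 CPM [78.3, 103] (207 UMIs) and 33.7 CPM [22.5, 48.3] (29 UMIs), with intervals that did not overlap.

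Across the 10 sums of class and library, levels of several members moved with those of other cell division genes. Pearson's r of log2(CPM + 5) is given as a description; the points share their library and depth, and erythroid sums of the wildtype library were low for most genes. Bub1b was most like Arhgap11a, a regulator of cytokinesis (r = 0.98), Kif4, a chromosome-bound kinesin (0.98), and 2010110K18Rik (0.97). Mad2l1 was most like Birc5 and Cdca8, both of the chromosomal passenger complex, and Cks2, a cyclin-dependent kinase subunit (each 0.99), and Cdc20 was most like Cdk1 (0.99), Haus5 and Prkrip1. Bub1 was closest to Kifc5b, Cenpn and Depdc1a, while Bub3 (Ccdc59, Tgs1 and Cstf2), Mad1l1 (Rpgrip1, Ddx31 and Nup50), Ttk (Zfp850, Nup50 and Fam111a) and Knl1 (Ikzf5, Gtpbp1 and Hmmr) had mostly genes outside the G2/M list. Among members, the r of Bub1b with Knl1 was 0.89, and 0.92 over the 8 sums without erythroid cells. The r of Bub1b with Bub3 was 0.73, and -0.10 without erythroid cells.

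The members differed in how much of their RNA sat in dividing cells. At 6000 UMIs per cell, the 25% of cardiomyocytes with the most UMIs of 54 G2/M genes held 80.5% of Cdc20 UMIs [73.5, 86.4] in the wildtype library, 74.8% of Knl1, 69.7% of Bub1b, 64.2% of Ttk and 61.8% of Bub1, where an even spread would give about 25%. Mad2l1 (48.1%), Bub3 (47.3%) and Mad1l1 (41.9%) were spread more widely, and the intervals of Bub3 and Mad1l1 did not overlap those of Cdc20, Knl1 or Bub1b. In the knockout library the shares were 69.5% for Cdc20, 68.6% for Knl1, 63.5% for Bub1b, 69.8% for Ttk and 59.0% for Bub1, against 42.3% for Mad2l1, 43.7% for Bub3 and 35.1% for Mad1l1. Ranked by 40 S phase genes instead, the top 25% of cells held 33.1% of Bub1b UMIs [26.3, 40.6] in the wildtype library and 17.6% [9.70, 28.2] in the knockout library, and 14.5% and 12.6% of Cdc20 UMIs.

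**Figure D3:**
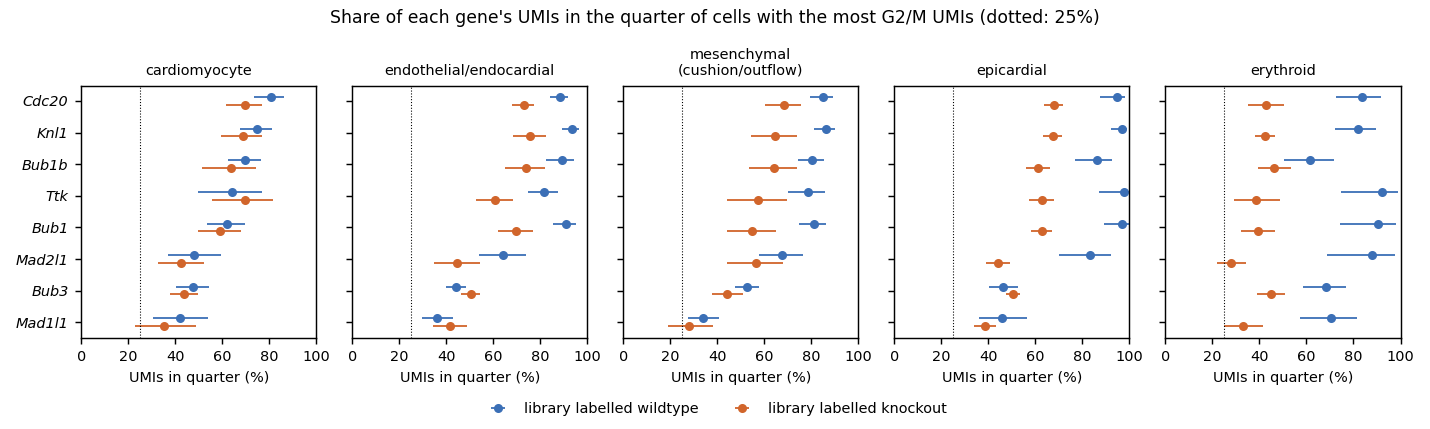
Percent of each gene's UMIs (horizontal axis) found in the 25% of cells with the most G2/M UMIs, by class and library, at 6000 UMIs per cell; bars are 95% Clopper-Pearson intervals and the dotted line marks 25%. Cdc20 and Knl1 lie farthest right in cardiomyocytes of the wildtype library (80.5% and 74.8%), and Mad1l1 (41.9%) and Bub3 (47.3%) farther left.

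Within the G2/M-rich 25% of cells, Bub1b was at 94.7 UMIs per 100 cardiomyocytes in the wildtype library (124 UMIs) and 33.1 in the knockout library (47 UMIs), a log2 ratio of -1.52 [-2.03, -1.02]. In the remaining cardiomyocytes it was at 13.7 and 6.34 UMIs per 100 cells, -1.11 [-1.83, -0.42]. Knl1 was lower among the G2/M-rich cells (93.1 and 58.5 UMIs per 100 cells, -0.67 [-1.09, -0.26]), as were Bub1 (-0.48 [-0.96, -0.01]) and Cdc20 (-0.40 [-0.79, -0.02]). In the remaining cells these 3 held 0, at -0.22 [-0.89, 0.45], -0.31 [-0.89, 0.28] and 0.46 [-0.23, 1.17]. Among the G2/M-rich cells Ttk stood at 26.0 and 26.1 UMIs per 100 cells (0.01 [-0.71, 0.72]). The G2/M-rich cells were drawn within each library, and the lowest of them had 46 G2/M UMIs in the wildtype library and 41 in the knockout library. The Bub1b difference was thus present both among cells rich in G2/M RNA and among the rest.

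Members were detected in the same cell more often than independent detection would give. Cardiomyocytes with at least 6000 UMIs numbered 526 and 568, after 65 and 34 shallower ones were left out. Of those labelled wildtype, 35.9% had 0 of the 8 members, against 18.8% if the genes were independent, and 74 cells had 4 or more, against 22.2. In the knockout library 41 cells had 4 or more, against 14.2. Summed over the 28 pairs of members, the number of cells holding both genes was 1.68 times the independent number in the wildtype library (848 against 503) and 1.48 times in the knockout library (603 against 408). The interval lay above 1 for 19 and 13 of the 28 pairs and below 1 for 0 in both libraries. Pairs of genes outside the members were not counted, so whether other pairs share cells as often was not tested.

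The pairs with the highest ratio of observed to expected cells in cardiomyocytes labelled wildtype were Bub1b with Ttk (27 cells against 11.5, ratio 2.35 [1.55, 3.42]), Cdc20 with Knl1 (47 against 20.3, 2.32), Bub1b with Cdc20 (48 against 22.1, 2.17) and Bub1 with Knl1 (50 against 23.4, 2.13). The kinase and its homologue, Bub1 and Bub1b, shared 50 cells against 25.5 (1.96 [1.45, 2.58]) in the wildtype library and 13 against 10.6 (1.22 [0.65, 2.09]) in the knockout library. Bub1b with Knl1 stood at 2.11 [1.59, 2.76] and 2.59 [1.71, 3.77]. The Mad1 and Mad2 partners shared 9 cells against 9.04 (0.995 [0.46, 1.89]) and 10 against 9.56 (1.05 [0.50, 1.92]). These intervals hold 1 but are too wide to leave out an excess. In other classes the interval of this pair lay above 1 in wildtype mesenchymal (1.48 [1.01, 2.08]), knockout epicardial (1.37 [1.10, 1.69]) and wildtype erythroid cells (7.5). It held 1 in the remaining classes and libraries. In cardiomyocytes the intervals of both libraries overlapped for each of the pairs named here. The ratio was not split by cell cycle phase.

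**Figure D4:**
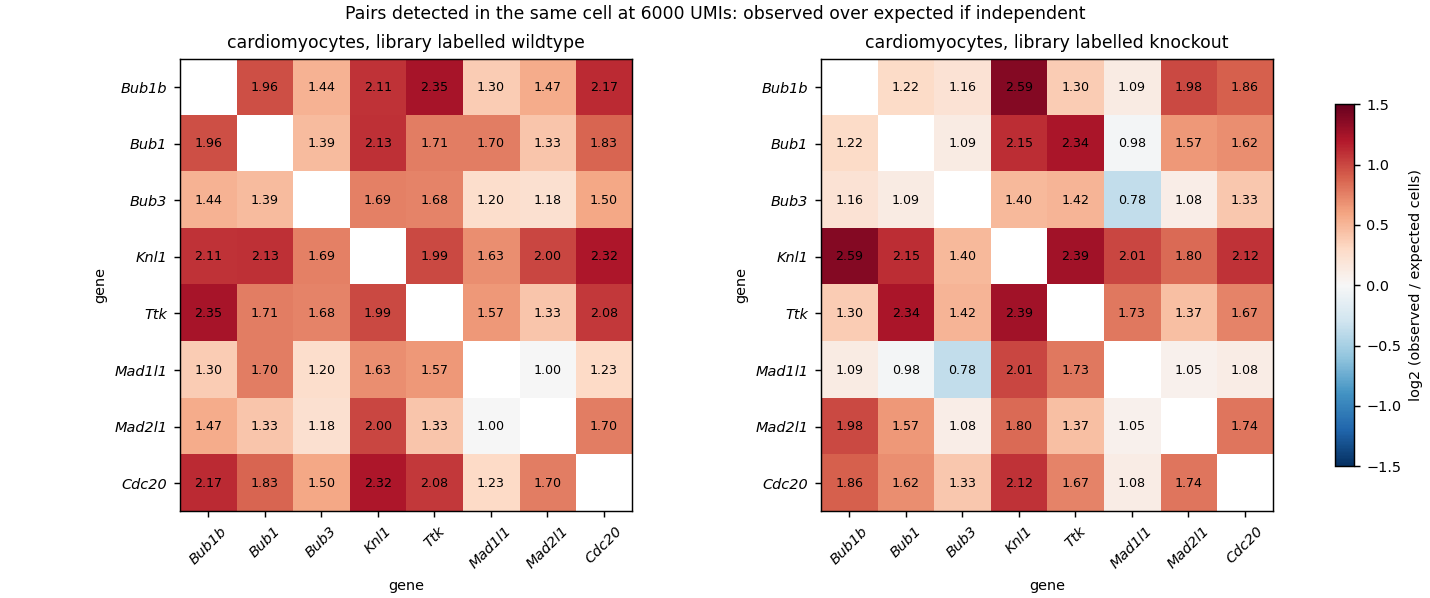
Number of cardiomyocytes in which both genes of a pair had a UMI, divided by the number expected if the genes were independent, at 6000 UMIs per cell; each square is 1 pair and the colour is the log2 of the printed ratio. Ratios are mostly above 1 in both libraries, with Bub1b and Ttk at 2.35 in the wildtype library and 1.30 in the knockout library, and Mad1l1 and Mad2l1 near 1.

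The summed ratio stood higher in the wildtype library in the other classes too, though its size changed with the depth of thinning. It was 1.82 and 1.51 in endothelial/endocardial cells, 1.90 and 1.42 in mesenchymal cells, 2.34 and 1.54 in epicardial cells and 6.46 and 1.18 in erythroid cells. Each member was detected in a smaller share of wildtype than of knockout cells in these classes, Bub1 in 7.72% and 21.8% of epicardial cells. A ratio to an expected number can stand higher where shares are low, so the libraries are not compared on equal terms. In erythroid cells 84.9% of those labelled wildtype and 26.6% of those labelled knockout held 0 members, and 18 of the 1750 cells labelled wildtype held 4 or more, against 0.072 expected. Since hemoglobin took more of the 6000 UMIs in the wildtype library, the depth left for other genes was not equal, and a cell with 0 members is not shown to lack them.

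Detection of Bub1b in cells that held its partners gave the same contrast as the sums. At 6000 UMIs, 121 of 526 wildtype cardiomyocytes held Bub1b (95% interval 19.5% to 26.8%) and 65 of 568 knockout cardiomyocytes did (11.4% [8.94, 14.4]); at full depth, with medians of 13882 and 18237 UMIs, the shares were 38.2% and 30.7%. Among cardiomyocytes with 3 or more of the 7 other members, Bub1b was found in 55 of 100 cells labelled wildtype (55.0% [44.7, 65.0]) and in 19 of 86 labelled knockout (22.1% [13.9, 32.3]). At full depth these shares were 74.1% and 56.2%. With 2 other members the thinned shares were 32.6% and 17.5%, with 1 they were 15.0% and 12.1%, and with 0 they were 8.70% and 3.40%. In cells with at least 1 other member the log2 odds ratio was -1.32 [-1.88, -0.77].

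In the other 4 classes the same odds ratio held 0: it was 0.30 [-0.18, 0.79] in epicardial cells, 0.28 [-0.32, 0.90] in erythroid cells, 0.10 [-0.40, 0.59] in endothelial/endocardial cells and -0.14 [-0.66, 0.37] in mesenchymal cells, where it turned to 0.59 [-0.076, 1.25] at 3000 UMIs. The interval of the epicardial odds ratio left out 0 at 3000 UMIs (0.70) and in a second draw (0.50), and the ratio turned to -0.12 [-0.64, 0.41] at 10000 UMIs. Epicardial cells with 3 or more other members held Bub1b in 34 of 66 cells labelled wildtype (51.5% [38.9, 64.0]) and 149 of 440 labelled knockout (33.9% [29.4, 38.5]). These intervals did not overlap either, but at full depth the epicardial shares were 63.8% [53.9, 73.0] and 60.4% [57.1, 63.6]. In the remaining classes the thinned share also stood below that of the wildtype library, with intervals that overlapped. It was 41.1% and 32.8% in endothelial/endocardial, 57.2% and 48.2% in mesenchymal and 46.4% and 22.5% in erythroid cells. Bub1b was also found in 78 of the 3642 hemoglobin-rich barcodes of the wildtype library that failed the gene minimum (2.14% [1.70, 2.67]). Their median depth was 6220 UMIs and 88.7% of their UMIs were hemoglobin, so little depth was left for other genes. Their share is thus no measure of background for other classes. The knockout library had 15 barcodes under the gene minimum, so the wildtype level was set beside both libraries, as a description only. Among cells with 0 other members, the intervals reached down to that level in endothelial/endocardial cells (1.94% and 1.27%), in mesenchymal cells (4.29% and 5.56%), in knockout cardiomyocytes (3.40% [1.38, 6.88]) and in wildtype epicardial (2.80%) and erythroid (2.62%) cells. Free RNA of near-empty droplets held Bub1b at 33.5 and 33.7 CPM and made up at most 4.70% and 3.66% of cardiomyocyte UMIs.

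**Figure D5:**
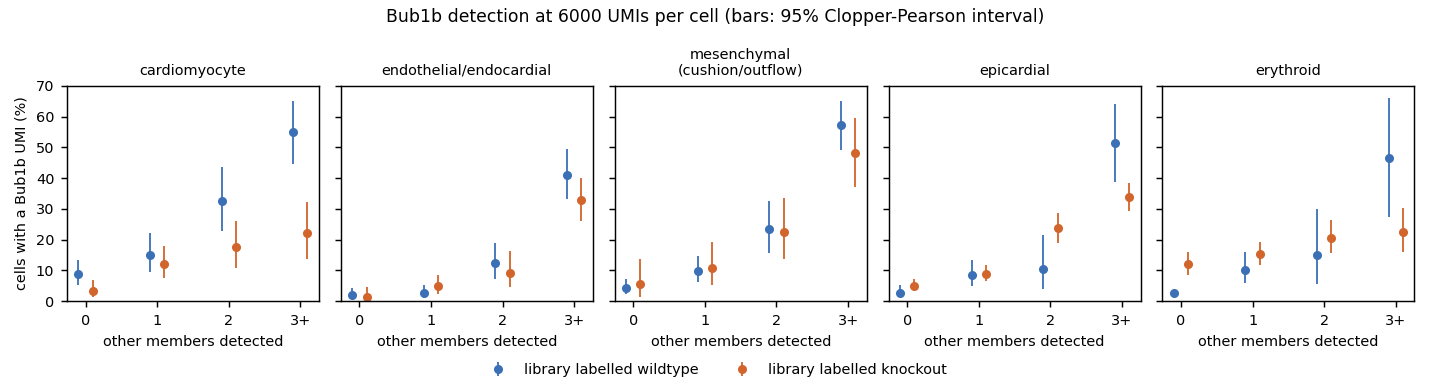
Percent of cells with a Bub1b UMI (vertical axis) by the number of the 7 other checkpoint genes detected in the same cell (horizontal axis), in 5 classes at 6000 UMIs per cell; points are the libraries and bars 95% Clopper-Pearson intervals. Shares climb with the number of partners in all panels, and in cardiomyocytes with 3 or more partners the libraries stand at 55.0% and 22.1% with intervals that do not overlap.

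Other genes of the checkpoint pathway in cardiomyocytes were taken from fixed lists and counted by the same interval, by which 19.4% of all genes were lower and 20.6% higher. Of 6 genes that hold or remodel Mad1 and Mad2 at kinetochores, 2 were lower and 0 higher: Kntc1, the large subunit of the RZZ complex (25.9 and 18.1 CPM, -0.51), and Spdl1, which encodes Spindly (27.2 and 21.4 CPM, -0.35). Of 13 outer kinetochore genes 5 were lower and 0 higher, Cenpe, a kinetochore motor, most (102 and 68.3 CPM, -0.57), then Nuf2 of the Ndc80 complex (-0.49). Of 13 genes of the chromosomal passenger complex, its kinases and phosphatase adaptors, 6 were lower and 0 higher, Haspin, a histone kinase, most (80 and 72 UMIs, -0.55 [-1.03, -0.07]) then the kinase Plk1 (44.1 and 31.3 CPM, -0.50). The medians of these 3 lists were -0.09, -0.18 and -0.12, beside a median of 0.02 over all genes.

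The target of the checkpoint, APC/C, had calls in both directions, as all genes had (20.6% higher and 19.4% lower). Among 17 genes of APC/C and its E2 enzymes, 3 were higher and 5 lower, at a median of 0.02 as over all genes: the subunit genes Anapc10 (32.1 and 46.3 CPM, 0.53) and Cdc26 (61.9 and 74.9 CPM, 0.27) were higher, and Anapc16 (70.5 and 53.5 CPM, -0.40) and Anapc7 (28.3 and 22.9 CPM, -0.30) lower. Of 9 APC/C coactivator, inhibitor and substrate genes 0 were higher and 4 lower, with the substrates Ccna2, which encodes cyclin A2 (92.5 and 70.1 CPM, -0.40), and Gmnn, which encodes geminin (137 and 105 CPM, -0.38), lowest. In the G2/M list 37 of 54 genes were lower and 2 higher, at a median of -0.35. The proliferation marker Mki67 (185 and 99.3 CPM, -0.90) and Sgo2a, a guardian of centromeric cohesion (60.1 and 34.1 CPM, -0.82), were its lowest, and the higher 2 were Psrc1, a spindle protein (0.80), and Hmgb2, a chromatin protein (0.21). Of these, Mki67 lay closest to the Bub1b ratio of -1.01.

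The S phase list had 7 genes higher and 5 lower of 40 in cardiomyocytes, with a median of 0.00 (log2), under the 20.6% and 19.4% of all genes; relative to the median gene 10 were lower. Cdca7 (15.6 and 22.9 CPM, 0.55) and the helicase gene Hells (45.2 and 64.3 CPM, 0.51) were its highest, and Rrm2, a subunit of ribonucleotide reductase (-0.47), and Dscc1, a cohesion factor (-0.46), its lowest. Among 8 comparison genes of interphase 4 were higher and 1 lower, led by the elongation factor gene Eef1a1 (0.22) and Actb (0.16), with Hprt at -0.43. In the 3 other classes without hemoglobin as the main RNA, the G2/M list went the other way. Of its 54 genes, 46 were higher in endothelial/endocardial, 36 in mesenchymal and 53 in epicardial cells, and 0 were lower in each. Of all genes, 15.9%, 19.0% and 24.3% were higher in these classes and 33.1%, 27.3% and 31.0% lower. Some genes, such as Ccna2, Plk1 and Gmnn, were counted in more than 1 of the lists.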

How the data were processed

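Single-cell RNA was measured in 2 libraries, each of 4 pooled hearts. The deposited matrices hold raw UMI counts per gene and barcode for all barcodes, which the authors produced using Cell Ranger 7.1.0 and mm10, per the submitters' processing notes and the file headers. The sources used here do not name the annotation version, whether introns were counted or the authors' cell filters. The files held 122834180 UMIs over 1451246 barcodes (labelled wildtype) and 130039314 over 1632950 (labelled knockout). Of 11123 and 6060 barcodes with at least 3000 UMIs, 3642 and 15 had under 500 genes (those labelled wildtype were 88.7% hemoglobin), and 41 and 79 passed 20% mitochondrial UMIs.

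Here cells were thinned to 3000 UMIs and assigned to a class by a minimum of distinct markers with a UMI (7 of 12 for cardiomyocytes, 4 for endothelial/endocardial, 5 for mesenchymal, 4 for epicardial; at least 300 UMIs of erythroid markers). These minima were set after the data were seen, and no clustering was used. The mesenchymal gate has no clear low point: 325 and 99 cells sat at its minimum, as did 394 epicardial cells labelled knockout. Cells with markers of 2 or more classes were left out as likely doublets, and Scrublet (scanpy 1.11.5) was an alternative that marked 443 cells (5.95%) and 285 (4.78%). Counts were summed per class and library. Ratios have exact conditional binomial intervals, levels exact Poisson and shares Clopper-Pearson intervals, at 95% and for counting error only; cells are not replicates. Genes that reached 20 UMIs in the sum of both libraries were counted as higher, lower or holding 0. Expected co-detection is the product of both genes' shares within class and library. The free RNA share takes all hemoglobin UMIs outside erythroid cells as free. The functions were tested on simulated counts. Python 3.11.15, numpy 2.4.6, scipy 1.17.1 and pandas 2.3.3 were used.

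The members and lists were chosen with earlier results of these data known. Named were all 8 members and, from each other list, up to 2 genes with the highest and 2 with the lowest cardiomyocyte ratio among genes with at least 50 UMIs and an interval that leaves out 0. The 3 genes most like each member were taken among genes with at least 200 UMIs.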

Additional observations from a re-analysis of the deposited data

Results flagged for a closer look

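Some members lay on opposite sides of 0 in cardiomyocytes and in another class, scaled to all UMIs. Genotype was not tested in either class, and the intervals of the differences cover counting error only. The Bub1b ratio was -1.01 in cardiomyocytes, 0.35 in endothelial/endocardial cells (difference -1.37 [-1.67, -1.06]) and 0.84 in epicardial cells (-1.85 [-2.16, -1.56]). Bub1 stood at -0.21 against 0.54 (difference -0.75 [-1.02, -0.47]) and 1.33 (-1.54 [-1.85, -1.23]) in the same classes. Cdc20 stood at -0.19 against 0.57 (-0.76 [-0.98, -0.53]) and 0.82 (-1.01 [-1.28, -0.74]), and Knl1 at -0.60 against 0.64 in epicardial cells (-1.25 [-1.5, -0.99]). Per UMI of the G2/M list, Bub1 and Cdc20 turned to 0.038 and 0.060 in cardiomyocytes, Bub1b to -0.12 in endothelial/endocardial cells, and Bub1b, Cdc20 and Knl1 to -0.16, -0.18 and -0.36 in epicardial cells. The G2/M list differed between the same classes, at -0.25 in cardiomyocytes, 0.48 in endothelial/endocardial and 1.00 in epicardial cells.

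Bub1b also appeared in barcodes outside the comparisons. In the 3642 hemoglobin-rich barcodes of the wildtype library with under 500 genes it stood at 4.08 CPM [3.31, 4.98] over 97 UMIs. In the kept erythroid cells of that library Bub1b stood at 8.79 CPM. In the same order, Bub1 stood at 0.673 CPM (16 UMIs) and 3.42 CPM, and Bub3 at 2.86 CPM (68 UMIs) and 10.8 CPM.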

How the results depend on the processing

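With 1 library per genotype no replicate could be left out. No paired analysis was possible because each group is 1 library. A minimum of 5000 UMIs, a mitochondrial limit of 10% and, chosen after the data were seen, ventricular cells alone moved no ratio beyond its interval. Bub1 and the sum of the 7 other members in cardiomyocytes, and Knl1 in mesenchymal cells, nevertheless crossed between holding 0 and lower. The cause of the changes below was not tested. Over 10 settings the cardiomyocyte ratio of Bub1b ran from -1.38 (cells thinned to 6000 UMIs) to -0.77 (per UMI of the G2/M list). Scaled per UMI of the G2/M list, ratios turned to 0.038 (Bub1), 0.060 (Cdc20) and 0.13 (sum of the 7 other members) in cardiomyocytes, with Mad2l1 at 0.18, Ttk at 0.15 and Mad1l1 at 0.37; -0.12 (Bub1b), -0.12 (Bub3), -0.22 (Mad1l1) and -0.081 (sum) in endothelial/endocardial cells; -0.0084 (Bub1), -0.0063 (Cdc20) and -0.11 (sum) in mesenchymal cells, with Bub1b at -0.39. In epicardial cells they turned to -0.16 (Bub1b), -0.55 (Bub3), -0.36 (Mad1l1), -0.18 (Cdc20), -0.36 (Knl1) and -0.22 (sum), and in erythroid cells to -0.56 (Bub1b), -0.32 (Bub3), -0.84 (Mad1l1), -0.040 (Ttk) and -0.43 (Cdc20), with the sum at 0.083. Without mitochondrial, ribosomal protein and hemoglobin genes the sum stood at 0.47 in endothelial/endocardial and 1.64 in erythroid cells, where Bub1b was at 0.998. Relative to the median gene the sum was at 0.53 in endothelial/endocardial, 0.43 in mesenchymal and 1.62 in erythroid cells, with erythroid Bub1b at 0.97, and 10 S phase genes and 2 comparison genes counted as lower in cardiomyocytes. In erythroid cells Bub1b and the sum were at 2.22 and 2.90 with free RNA subtracted and at 2.17 and 2.98 with the stricter gate, and the sum was at 2.71 without Scrublet doublets. At 3000 UMIs the mesenchymal odds ratio of Bub1b was 0.59, the share of Ttk in the G2/M-rich 25% of cardiomyocytes labelled knockout was 43.8%, and summed co-detection was 2.11 (endothelial/endocardial), 2.15 (mesenchymal), 2.78 (epicardial) and 8.94 (erythroid) in the wildtype library and 1.62 and 1.55 in endothelial/endocardial and mesenchymal cells labelled knockout. At 10000 UMIs it was 1.46 (cardiomyocytes), 1.45 (endothelial/endocardial), 1.44 (mesenchymal), 1.91 (epicardial) and 7.34 (erythroid) in the wildtype library, and 1.38 (endothelial/endocardial) and 1.41 (epicardial) in the knockout library. A second draw gave 7.66 in erythroid cells labelled wildtype. The remaining depth limit is that of single cells: at 6000 UMIs each member was missed in most cells of each class and library, Bub3 reaching at most 49.8% of cells.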
